A study of Mus musculus with 2 samples.

Results

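Genes for the breakdown of extracellular nucleotides and for the uptake of the resulting nucleosides were followed in mouse intestinal epithelial cells after exposure to a bile acid. The group holds 10 genes out of 23860 named genes with a probe on the array. Its enzymes are Enpp1, Enpp3 and Enpp7 of the ENPP family, the alkaline phosphatase Alpi, the ecto-5'-nucleotidase Nt5e and the adenosine deaminase Ada. Its carriers are the concentrative Slc28a1, Slc28a2 and Slc28a3 and the equilibrative Slc29a1. Members were chosen by gene name and role, with earlier results of the same 2 arrays known, the size of the Enpp3 difference among them. Their log2 differences are therefore given as a description and support no test. A probe belonged to a member when the gene name in the scanner file was that of the member and the spot was not a control, which gave 11 probes, 2 for Enpp1 and 1 for each of the other members.

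The cells came from wild-type male mice. Pieces of intestine were exposed for 2 h to 0.5 µM of the primary bile acid cholic acid in one group and to 0.05% DMSO plus 0.25% ethanol (vehicle) in the other, and RNA of the epithelial cells was hybridised to 1 one-colour Agilent array per condition. Solvent is stated only for the vehicle group, and neither the number of mice nor the position of the segments along the gut is given. The series title asks for candidate targets of PPARα, a nuclear receptor of fatty acid metabolism, that depend on bile acid.

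In the gut lumen, nucleotides from food and from shed cells are cut at the brush border. Phosphodiesterases of the ENPP family and alkaline phosphatase release nucleoside monophosphates and phosphate, and ecto-5'-nucleotidase turns AMP into adenosine. Adenosine deaminase turns adenosine into inosine, and its place inside or outside the cell was not measured here. Sodium-coupled carriers of the SLC28 family take nucleosides up against their gradient, and SLC29 carriers let them pass down it. In the mouse villus, Nt5e, Ada and Slc28a2 are known for being expressed most by enterocytes near the tip.

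With 1 array per condition, no difference below has a replicate check, no p-value can be given, and the number of arrays limits the precision. A spot's value is the processed signal, an intensity after background subtraction. Log2 signals were set relative to the 75th percentile of each array, which was 1060 with vehicle and 741 with cholic acid, so that a lower raw signal on the cholic acid array can correspond to no scaled difference. A probe counts as measured where the scanner software called it well above background, which held on both arrays for 40.61% of all probes. Among 212 probes spotted several times, the SD of a log2 difference between spots had a median of 0.09. That value and the software's own error of a spot describe the array measurement, not the spread between animals or segments. The software's error was nearly the same share of the signal for every member measured on both arrays. In single genes, a difference is set beside a yardstick, the robust SD of the differences over the 1000 genes closest to it in mean signal. Over all 12862 genes measured on both arrays, the median log2 difference was 0.08, and 264 genes (2.05%) were at least 2-fold lower and 845 (6.57%) at least 2-fold higher with cholic acid.

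Of the 10 members, 9 were measured on both arrays, and 8 of these had a log2 difference below 0, a direction shown by 42.6% of all genes. The lower members were led by Enpp3, Nt5e and Slc28a2, and the member above 0 was Slc29a1. At least 2-fold lower were 2 of 9, Enpp3 and Nt5e, against the 2.05% of all genes given above, and at least 2-fold higher were 0 of 9, against 6.57%. The median of the 9 was -0.53. Since members were chosen with results known, these counts are not evidence that the group stands apart. The shares of all genes, here and below, are also not matched for signal. The median of the genes nearest in signal was -0.07 for Enpp3 and -0.11 for Nt5e, but 0.25 for the dim Slc29a1. With the dimmer genes left out, 8 members remained and the median of all genes was -0.04. In that setting 192 genes were at least 2-fold higher and 148 at least 2-fold lower. In bulk samples, fewer cells of a type and less RNA per cell cannot be told apart.

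**Figure D1:**
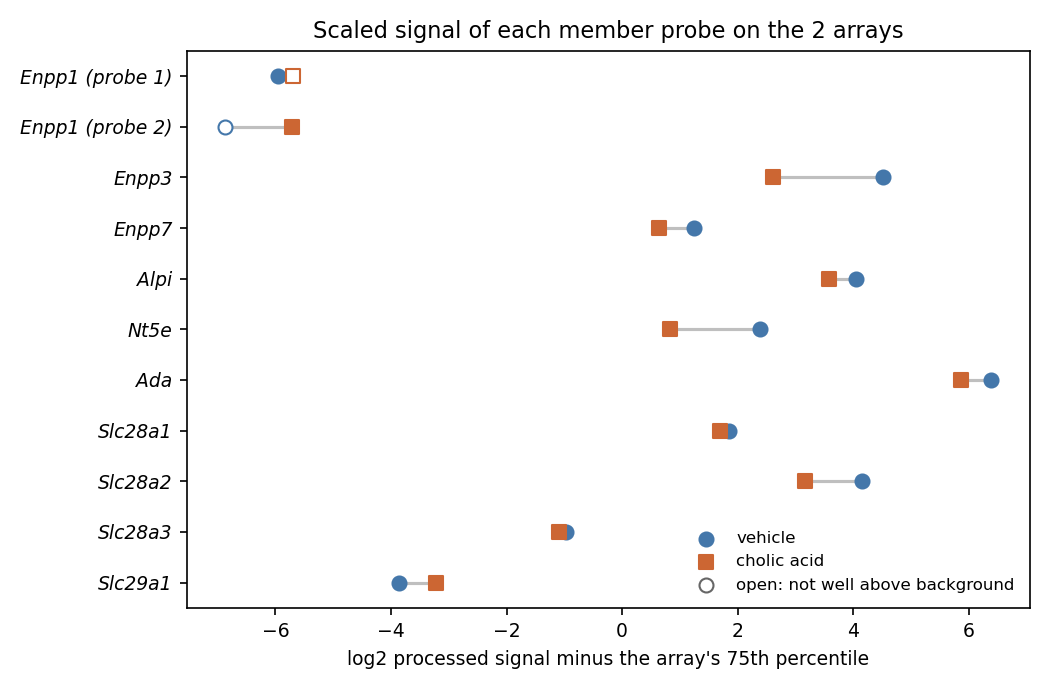
Scaled log2 signal of each of the 11 member probes (x axis, log2 processed signal minus the array's 75th percentile) on the vehicle array (circles) and the cholic acid array (squares), with 1 array per condition and no error bars. Open symbols were not well above background. The cholic acid symbol lies left of the vehicle symbol for 8 genes, farthest for Enpp3, and right of it for Slc29a1, while each Enpp1 probe is open on 1 array.

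Among the phosphodiesterases, Enpp3, which cleaves nucleotides and nucleotide sugars at the cell surface, had a signal of 24300 with vehicle and 4540 with cholic acid. After scaling it was 3.74-fold lower with cholic acid (log2 difference -1.90), the 19th lowest of the 12862 genes. The spread of the genes nearest in signal was 0.37, and the error of the difference from the software's spot errors was 0.20. Its probe lies on chromosome 10 from 24493672 to 24493731 of mm9, the build named in the file headers. Exon annotation of that build was not used here.

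Enpp7, the alkaline sphingomyelinase of the brush border, belongs to the same family but cleaves sphingomyelin, and not nucleotides, in the gut. Its signal was 2510 with vehicle and 1150 with cholic acid. The scaled log2 difference was -0.61, a 1.53-fold lower level, at 1.36 spreads below the median of the genes nearest in signal (log2 spread 0.37). The Enpp7 probe lies on chromosome 11 from 118853563 to 118853622.

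Enpp1, which makes pyrophosphate and AMP from ATP, was at the limit of detection. Its probe at 24358048 to 24358107 of chromosome 10 had a signal of 17.1 with vehicle and 14.3 with cholic acid, and was well above background with vehicle alone. The other probe, at 24361540 to 24361599, had 9.10 with vehicle and 14.2 with cholic acid and was well above background with cholic acid alone. Counted against the lowest signal well above background on the vehicle array, the scaled level of that second probe was 1.39-fold higher with cholic acid. This is not a firm lower limit, since brighter probes can miss the call, such as a Tk1 probe at 18.8 with vehicle. The first probe gave no such value, since its scaled signal was not higher on the array that detected it. The scaled log2 differences of the 2 probes were both above 0, at 0.26 and 1.16, with errors of 0.44 and 0.59 from spot errors. Scaling on the spike-ins, which moves each difference by -0.86, takes the first below 0, and neither probe was measured on both arrays. The gene lies directly beside Enpp3 in the order of coding genes on chromosome 10 of a RefSeq table (assembly GRCm38.p6), and of the pair only Enpp3 was measured on both arrays.

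Alpi encodes intestinal alkaline phosphatase, which removes phosphate from nucleotides and from bacterial lipopolysaccharide at the brush border. Its signal was 17400 with vehicle and 8870 with cholic acid, and the scaled log2 difference was -0.46 (1.37-fold lower, spread of nearest genes 0.38). The Alpi probe lies on chromosome 1 from 88994890 to 88994949. In the RefSeq order the gene has the related phosphatases Alppl2 and Akp3 as its neighbours. The Akp3 probe, for the phosphatase of the mouse duodenum, was dim, at 8.42 with vehicle and 10.2 with cholic acid, and did not reach well above background with either. The Alppl2 probe had 68.0 with vehicle and 31.4 with cholic acid, a scaled log2 difference of -0.60.

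Nt5e, also known as CD73, is the ecto-5'-nucleotidase that makes adenosine from AMP. Its signal was 5560 with vehicle and 1310 with cholic acid. After scaling it was 2.97-fold lower with cholic acid (log2 difference -1.57), the 46th lowest of 12862 genes, where the spread of the nearest genes was 0.38 and the error from spot errors 0.20. Its probe lies on chromosome 9 from 88266616 to 88266675.

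Ada, the enzyme that removes adenosine by deamination, had a signal of 88800 with vehicle and 42900 with cholic acid, and was not saturated on either array. The scaled log2 difference was -0.53 (1.45-fold lower), at 1.23 spreads below the median of the genes nearest in signal. Its probe lies on chromosome 2 from 163552581 to 163552640. The scaled signal of Nt5e was thus lower by more than that of Ada, by 1.04 on the log2 scale. The error was 0.29 from spot errors alone, and protein and enzyme activity were not measured.

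The 3 concentrative carriers had unequal differences. Slc28a2, a purine-preferring sodium-coupled carrier, had a signal of 18800 with vehicle and 6650 with cholic acid. It was 1.98-fold lower after scaling (log2 difference -0.98, spread of nearest genes 0.38), just short of the 2-fold limit. The call depended on the setting: Slc28a2 was at least 2-fold lower in 7 of 12 alternative settings, with log2 differences from -1.85 to -0.98. Slc28a1, the pyrimidine-preferring carrier, had 3820 with vehicle and 2390 with cholic acid, a log2 difference of -0.16, well inside the spread of 0.37 among its nearest genes. Slc28a3, the carrier of broad specificity, had 539 with vehicle and 347 with cholic acid, a log2 difference of -0.12 against a spread of 0.39. Between Slc28a2 and Slc28a1 the difference was larger by 0.82 in Slc28a2, with an error of 0.29 from spot errors. The probes lie on chromosome 2 from 122286721 to 122286779 (Slc28a2), chromosome 7 from 88315243 to 88315302 (Slc28a1) and chromosome 13 from 58654689 to 58654748 (Slc28a3).

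Slc29a1, the equilibrative nucleoside carrier ENT1, was the member with a higher scaled level. Its signal was dim, 73.2 with vehicle and 79.3 with cholic acid. The scaled log2 difference of 0.63 (1.55-fold higher) lay 0.72 spreads above the median of the genes nearest in signal, which was itself at 0.25, and the direction turned to -0.23 when the arrays were scaled on the spike-ins. Its probe lies on chromosome 17 from 45722171 to 45722230.

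**Figure D2:**
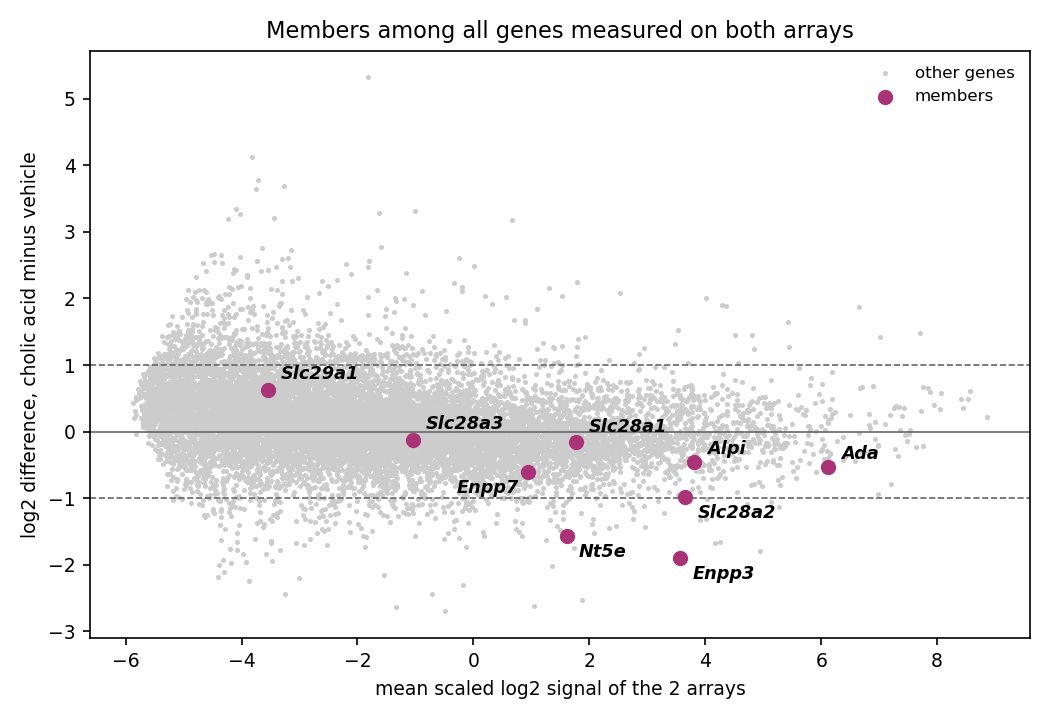
Log2 difference (cholic acid minus vehicle, y axis) against the mean scaled log2 signal of the 2 arrays (x axis) for the 12862 genes measured on both, in grey, with the 9 measured members marked. Dashed lines are 2-fold limits, 1 array stands behind each condition, and there are no error bars. Enpp3 and Nt5e lie below the lower line at -1.90 and -1.57, Slc28a2 on it at -0.98, and Slc29a1 among the dim genes at 0.63.

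Put in order, the differences ran from Enpp3 through Nt5e, Slc28a2, Enpp7, Ada, Alpi, Slc28a1 and Slc28a3 to Slc29a1. Of the 8 steps between neighbours, 5 exceeded the error from spot errors and 3 did not. That error came from the software and was nearly the same for every step, from 0.29 to 0.30. The count thus compares the steps with a near constant, not with a spread measured between repeated spots. The step from Enpp3 to Nt5e was 0.33 with an error of 0.29 from spot errors, and Enpp7, Ada and Alpi followed each other at steps of 0.08 and 0.08, below that error. The widest steps were from Nt5e to Slc28a2 (0.59, or 2.03 times its error) and from Slc28a3 to Slc29a1 (0.75, or 2.50 times its error). These errors hold no variation between animals, so the order of neighbours is not established.

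The lowest 3 members, Enpp3, Nt5e and Slc28a2, came in this order in each of 12 alternative settings. The 9 members of the main setting kept their order in 9 of them, with 8 members measured in the brighter genes. Enpp1, left out of this order, was also measured with the positive and significant flag and without a filter. In each of those settings, 2 of 10 members were above 0. With quantile normalization, loess and the authors' processed values, Ada came before Enpp7 and Slc28a3 before Slc28a1. In all 12, Enpp3 and Nt5e were at least 2-fold lower, with log2 differences from -2.77 to -1.90 for Enpp3 and from -2.43 to -1.54 for Nt5e. Enpp7, Ada, Alpi, Slc28a1 and Slc28a3 were below 0 in all 12 as well, but the scaling alone moved the median of all genes from 0.08 to as far as -0.78. Relative to that median in the same setting, Enpp3 ran from -2.30 to -1.86, Nt5e from -1.97 to -1.49, Slc28a2 from -1.38 to -0.94 and Slc29a1 from 0.23 to 0.56.

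**Figure D3:**
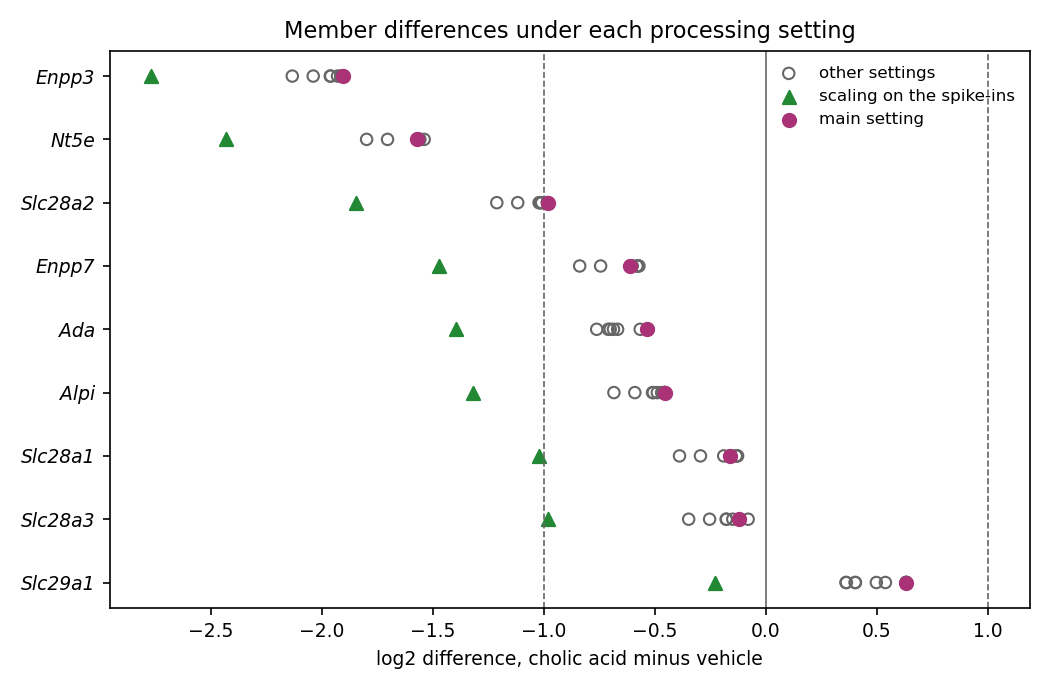
Log2 difference (cholic acid minus vehicle, x axis) of each measured member (y axis) in the main setting (filled circles), with scaling on the spike-ins (triangles) and in the other settings (open circles), where each point is 1 value from 1 array per condition. Enpp3 and Nt5e stay left of the dashed 2-fold line at -1 in all of them, and Slc28a2 straddles it. Scaling on the spike-ins moves each gene to the left, Slc29a1 from 0.63 to -0.23.

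The upstream sequence is shown for the members with the lowest differences, Enpp3, Nt5e and Slc28a2, and for Alpi as a brush border gene with a smaller difference. Each is the 250 bases before the gene start, 5' to 3' on the gene's strand, from RefSeq on build GRCm38.p6, in which all 10 members had an entry. Capitals mark exact matches, on either strand, to the receptor hexamer AGGTCA, the CDX motif TTTATNG, the HNF4 motif CAAAGTCCA or the TATA box TATAAA, where the TATA and CDX motifs can overlap. The windows are chr10:24836196-24836445 (minus strand), chr9:88327359-88327608 (plus), chr2:122426185-122426434 (plus) and chr1:87101607-87101856 (minus) in the order below.
Enpp3: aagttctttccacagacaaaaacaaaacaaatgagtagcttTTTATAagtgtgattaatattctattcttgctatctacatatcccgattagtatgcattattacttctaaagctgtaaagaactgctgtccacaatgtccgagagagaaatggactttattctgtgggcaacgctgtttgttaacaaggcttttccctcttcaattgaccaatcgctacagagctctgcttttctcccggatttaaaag
Nt5e: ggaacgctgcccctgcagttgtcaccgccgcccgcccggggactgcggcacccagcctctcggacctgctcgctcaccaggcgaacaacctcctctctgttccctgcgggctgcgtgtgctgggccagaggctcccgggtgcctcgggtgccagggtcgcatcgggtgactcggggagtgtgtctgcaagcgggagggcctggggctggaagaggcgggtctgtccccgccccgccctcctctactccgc
Slc28a2: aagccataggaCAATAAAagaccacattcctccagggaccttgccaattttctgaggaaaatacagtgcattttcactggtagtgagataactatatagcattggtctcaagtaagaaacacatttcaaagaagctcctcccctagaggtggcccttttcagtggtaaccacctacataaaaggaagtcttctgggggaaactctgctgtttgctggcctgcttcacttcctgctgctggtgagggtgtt
Alpi: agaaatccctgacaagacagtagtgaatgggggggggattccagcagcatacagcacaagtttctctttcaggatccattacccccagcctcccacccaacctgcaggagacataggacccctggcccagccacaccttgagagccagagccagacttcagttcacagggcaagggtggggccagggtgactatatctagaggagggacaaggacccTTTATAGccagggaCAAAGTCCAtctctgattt

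These windows had little in common. Their GC content was 36.8% for Enpp3, 72.0% for Nt5e, 45.2% for Slc28a2 and 54.4% for Alpi, and they held 5, 21, 0 and 0 CpG dinucleotides. Alpi had a TATA and CDX match starting 33 bases before the gene start and an HNF4 match starting 19 bases before it. The HNF4 motif was present in 0.384% of 32851 windows of the same length, the CDX motif in 9.81% and the TATA box in 12.4%. Slc28a2 had a CDX match starting 239 bases before the start, Enpp3 a TATA match starting 209 bases before it, and Nt5e no match to any of these. The hexamer AGGTCA, a building block of PPARα and FXR binding sites, was found in 4607 of the 32851 windows and, among the members, in the window of Slc29a1 alone, at 2 of its 8 start sites. Its direct repeat with a 1-base spacer, the PPAR type of element, occurred in 11 of 32851 windows and in 0 members. A match or its absence in 250 bases describes these letters only.

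Beyond the members, 5 lists cover the rest of the pathway: other ectonucleotidases and phosphatases, other carriers, receptors, purine enzymes and pyrimidine enzymes. Together they hold 82 genes, of which 57 were measured on both arrays. At least 2-fold higher were 4 of the 57 and at least 2-fold lower was 1, beside 6.57% and 2.05% of all genes, and the median was 0.03, beside 0.08.

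Of 18 other ectonucleotidases and phosphatases, 12 were measured, with 2 at least 2-fold higher, 0 lower and a median of -0.08. Enpp5 and Enpp4, members of the ENPP family whose genes neighbour each other on chromosome 17, were the higher pair. Enpp5 had a signal of 22.1 with vehicle and 194 with cholic acid on its measured probe (log2 difference 3.65), and 3.15 and 19.2 on a second probe that was well above background with cholic acid alone. Enpp4, which hydrolyses diadenosine polyphosphates, had 69.3 and 151 (log2 difference 1.64). Enpp2, the lysophospholipase autotaxin, was well above background with cholic acid alone, at 25.7 against 7.99. Counted against the lowest signal well above background on the vehicle array, it was 2.52-fold higher. So within the ENPP family the bright Enpp3 was lower, while Enpp4 and Enpp5 were higher from dim vehicle signals.

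Among 8 other carriers and channels for nucleotide release, 6 were measured, with 1 at least 2-fold higher and 0 lower. That gene was Slc17a9, the vesicular nucleotide transporter, with signals of 63.8 and 92.7 (log2 difference 1.06). The equilibrative carriers Slc29a2 and Slc29a3 were dim on each array, below the well above background call. Of 18 adenosine and P2 receptors, 10 were measured, 1 at least 2-fold higher and 1 lower, with a median of 0.34. P2rx7, an ATP-gated channel of immune cells, had signals of 110 and 292 on one probe (log2 difference 1.92) and of 116 and 160 on another (0.98). P2ry1, a receptor for ADP, had 384 with vehicle and 105 with cholic acid (log2 difference -1.35). The receptors that were measured thus went both ways. Under 5 other scalings, normexp background correction and the authors' processed values, Enpp5 was at least 2-fold higher in 7 of 7, Enpp4 and P2rx7 in 6 of 7 and Slc17a9 in 0 of 7 (log2 differences from 0.19 to 0.92), and P2ry1 was at least 2-fold lower in 6 of 7. The receptor median of 0.34 became -0.52 with the spike-ins.

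Enzymes listed under purine and pyrimidine breakdown and salvage form the last 2 lists, with some that act on nucleotides or on tRNA. Of 22 purine enzymes, 16 were measured, with 0 at least 2-fold apart and a median of -0.01, and the farthest from 0 were the deoxyguanosine kinase Dguok (0.52), the tRNA adenosine deaminase Adat1 (0.46, from probes at 0.04 and 0.88) and the AMP deaminase Ampd1 (-0.35). Of 16 pyrimidine enzymes, 13 were measured, with 0 at least 2-fold apart and a median of 0.03. There the cytidine deaminase Cda (0.89) and the mitochondrial thymidine kinase Tk2 (0.88) were highest and the thymidine phosphorylase Tymp (-0.86) lowest. These counts of 0 among 16 and 13 genes stand beside 6.57% of all genes higher and 2.05% lower. With the spike-ins, Dguok and Adat1 turned to -0.35 and -0.41.

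**Figure D4:**
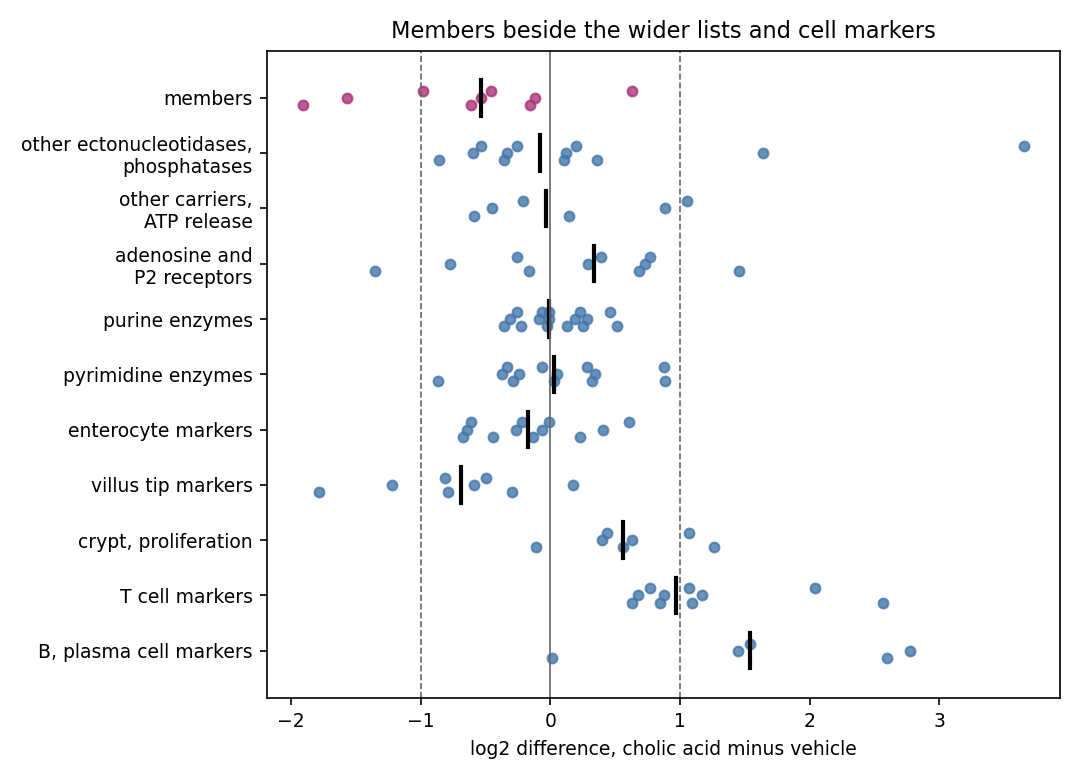
Log2 difference (cholic acid minus vehicle, x axis) of each gene measured on both arrays, by list (y axis), with the list median as a black bar, 2-fold limits as dashed lines and 1 array per condition. The members have their median at -0.53, the 5 wider pathway lists have theirs between -0.08 and 0.34, villus tip markers at -0.69 and T cell markers at 0.97.

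Markers of epithelial position and of other cells moved on the same arrays. The counts of markers above or below 0 stand beside 7384 of all 12862 genes above 0 and 5478 below. All 12 enterocyte markers were measured, among them Vil1 and Epcam, 9 of them below 0, with a median of -0.17. The enterocyte sum was 1300 times the scaling signal with vehicle and 1387 with cholic acid. Above 0 were Cdx2 (0.23) and the bright Fabp2 (0.61) and Anpep (0.40), which weigh heavily in that sum. All 8 villus tip markers outside the members were measured, 7 of them below 0, with a median of -0.69. Their summed signal was 148 with vehicle and 88.0 with cholic acid, most of it with vehicle from Apoa4 and Creb3l3. The sum takes the mean log2 signal of a gene's probes. Apoc3 thus counted little, although its brighter probe had 145000 with vehicle and 52800 with cholic acid, since its other probe had 295 and 133. Apoa4 (-1.79) and Fos (-1.22) were the tip markers at least 2-fold lower, and Apobec1 (0.17) was the one above 0. Of 8 crypt and proliferation markers 7 were measured, 6 above 0, with a median of 0.56 and sums of 3.05 and 4.44, while the stem cell marker Lgr5 was too dim to be called with vehicle or with cholic acid. For the dim Ascl2 (0.40), Olfm4 (0.56) and Top2a (0.44), the medians of the genes nearest in signal were 0.38, 0.38 and 0.32. For Mki67 (0.63), Mcm5 (1.26) and Mcm6 (1.07) they were -0.03, 0.15 and -0.10. With quantile normalization, 5 of the 7 were above 0, with a median of 0.14.

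All 10 T cell markers were above 0, beside 7384 of all 12862 genes, with a median of 0.97 and sums of 97.9 and 163. Of 7 B and plasma cell markers 5 were measured, each above 0, with sums of 3.19 and 4.33, and Ms4a1 was well above background with cholic acid alone. Of 6 distal gut markers 5 were measured, 4 above 0, with a median of 1.01, sums of 2.67 and 4.72 and Fgf15 too dim to be called. Fabp6, the bile acid-binding protein of ileal enterocytes and a known FXR target, gave a signal of 47.3 with vehicle and 1320 with cholic acid. Its log2 difference of 5.32 (39.9-fold higher) was the highest of all 12862 genes. Slc10a2, the ileal bile acid carrier, had a log2 difference of 2.26, and Cubn, the receptor for intrinsic factor, was the distal marker below 0 (-0.94). Proximal markers went both ways, 2 of the 4 measured above 0, with sums of 3.68 and 3.76 and Pdx1 too dim to be called. Cybrd1 had 1 probe well above background with vehicle alone, at 19.4 against 2.97 with cholic acid, and 1 dim probe. Among the proximal markers measured, the transcription factor Onecut2 had signals of 2070 and 294 (log2 difference -2.30), while S100g, a calcium-binding protein, stood at 2.61. Among the other cell types, medians were 0.34 for myeloid (3 of 4 above 0), 0.51 for fibroblast (4 of 4), 0.83 for smooth muscle (4 of 4), 0.07 for endothelial (1 of 2), 0.07 for goblet (4 of 4), -0.06 for Paneth (1 of 5) and 0.37 for enteroendocrine markers (4 of 4). The goblet median was below the 0.08 of all genes, and with centring on the median 1 of 4 goblet markers was above 0. Medians of the genes nearest in signal ran from 0.06 to 0.27 for the fibroblast markers. For the smooth muscle markers they ran from -0.04 to 0.38. The part of villus position, gut position and cell makeup in the member differences was not tested. Scaling on the spike-ins moved each difference by -0.86, which left 6 of 10 T cell, 4 of 5 B and plasma cell, 3 of 5 distal and 2 of 7 crypt and proliferation markers above 0. Relative to the median of all genes, over 5 other scalings with the spike-ins among them, the list medians ran from -0.62 to -0.51 for the members, -0.87 to -0.77 for villus tip, -0.44 to -0.26 for enterocyte, 0.21 to 0.48 for crypt and proliferation and 0.89 to 0.99 for T cell markers.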

How the data were processed

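RNA from 1 vehicle and 1 cholic acid sample was labelled with Cy3 and hybridised to Agilent arrays of design 028005. The deposited processed signal is an intensity that Agilent Feature Extraction subtracted for background and detrended within the array, per the file headers, which name version 10.7.1.1 (9.5.1.1 in the submitters' processing notes). A second deposited table holds the authors' processed intensities of 55681 probes, and its median was 10.09 in either column. The sorted columns differed by at most 0.0242%, so these are quantile-normalized linear values. How the authors made it is not given in the sources used here.

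Spots with non-uniformity or population outlier flags were left out (124 with vehicle, 119 with cholic acid), log2 signals were averaged over spots of a probe, and each array's 75th percentile, taken over the 22612 probes called well above background on each, was subtracted. A gene was the mean of its probes measured on both arrays. Genes were named through accessions in a RefSeq table (GRCm38.p6; 27318 probes), current symbols (3527), synonyms (548) or the file's own name (1589), and 22699 probes had none. Calculations used Python 3.11.15, and limma 3.58.1 for normexp with an offset of 50. The gene calculation was tested on simulated data.

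The members and lists were chosen with earlier results of these data known. Named were all members and, in each wider list, the genes at least 2-fold apart or up to 3 with the largest difference. Other genes were named after their values were seen. With 2 arrays a pattern is a single difference, so no genes of similar pattern were sought. Alternatives were 5 other scalings, normexp, the authors' table, the brightest probe, 3 other filters, flagged spots kept and limits of 1.5-fold and 3-fold. The loess span was 0.3.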

Additional observations from a re-analysis of the deposited data

How the results depend on the processing

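With 1 array per condition, leaving out a replicate was not possible, and no result has a test. No paired analysis was possible because each group holds 1 sample and the labels give no replicate numbers. Enpp3 and Nt5e were at least 2-fold lower in all 12 settings that keep that limit, and Slc29a1 was above 0 in 10 of the 11 that measured it. No member called at the 2-fold limit in the main setting changed sign. Slc29a1, the member higher at the 1.5-fold limit, turned from 0.63 to -0.23 with the spike-ins. The signal over background limits Enpp1 most.

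The count of members at least 2-fold lower was 2 in the main setting. It was 3 in the 75th percentile over all probes, centring on the median, quantile, loess, normexp and authors' table settings, 7 with the spike-ins, 4 at the 1.5-fold limit and 1 at the 3-fold limit, and 1 member was higher at 1.5-fold. Of all 12862 genes, 264 were at least 2-fold lower in the main setting and 3999 with the spike-ins. In the settings with 3 members lower, these counts ran from 104 to 540. Counts of all genes at the 1.5-fold and 3-fold limits follow below. The members' median of -0.53 moved to -0.76 with the 75th percentile over all probes, -0.67 with centring on the median and -1.40 with the spike-ins.

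For the wider lists, the counts of genes at least 2-fold higher (4) and lower (1) became 3 and 4 with the 75th percentile over all probes, 1 and 22 with the spike-ins, 3 and 0 with normexp, 4 and 2 with the brightest probe, 7 and 1 with the positive and significant flag, 8 and 1 without a filter, 0 and 0 in the brighter genes, 10 and 6 at 1.5-fold, and 2 and 0 at 3-fold.

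For all genes, the counts higher (845) and lower (264), with 76.19% of calls higher, became 429 and 540 (44.27%) with the 75th percentile over all probes, 553 and 393 (58.46%) with centring on the median, 451 and 425 (51.48%) with quantile normalization, 506 and 379 (57.18%) with loess, 115 and 3999 (2.80%) with the spike-ins, 271 and 104 (72.27%) with normexp, 454 and 428 (51.47%) in the authors' table, 192 and 148 (56.47%) in the brighter genes, 1929 and 456 (80.88%) with the positive and significant flag, 2934 and 627 (82.39%) without a filter, 2292 and 991 at 1.5-fold, and 178 and 42 at 3-fold. The counts under the other scalings and at the other fold limits are out of the same 12862 genes. The cause of the shifts between scalings was not tested.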

Other observations

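Slc28a2b, a gene that follows Slc28a2 in the order of coding genes on chromosome 2 and carries the name Gm14085 in the scanner files, was also lower with cholic acid. It was looked up after the Slc28a2 value was seen. One of its 2 probes had a signal of 1260 with vehicle and 382 with cholic acid (log2 difference -1.21), and the other 2010 and 484 (-1.54), next to -0.98 for Slc28a2. The 2 genes are related copies, so how far their probes share transcripts was not tested.

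Bst1, an ectoenzyme that uses NAD and belongs to the other ectonucleotidases here, had the lowest value of that list. Its brighter probe had signals of 18300 and 6370 (log2 difference -1.01) and its other probe 1870 and 800 (-0.71). The adenosine receptor Adora2b, which responds to high adenosine, had 1570 and 726 on one probe (-0.60) and 175 and 63.1 on another (-0.96).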
